A study of Mus musculus with 3 samples.

Results

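The Zbtb genes are 40 of the 21951 protein-coding genes annotated in the mouse: those whose symbol starts with Zbtb and a digit, with Zbtb16 left out. A small RNA sequence was assigned to a Zbtb gene where its whole length matched a transcript of that gene exactly on the listed chromosome, with the sense and the antisense strand kept apart. The study sequenced small RNAs bound to Tdrd1, a Tudor-domain protein of germ cells, or to Mili, a Piwi protein, from testes of C57BL/6 mice. Of its 3 libraries, 1 came from a Mili immunoprecipitate of Tdrd1 knockout testis, labelled 15 dpp (days after birth), 1 from a Tdrd1 immunoprecipitate of adult testis, and 1 from wild-type adult testis with Mili precipitated. The deposited list pools them, with 2219118 distinct sequences and 1 position for each, and holds no read number, strand or library. The depth of each library is therefore unknown, and the libraries, which differ in age as well as in genotype, were not compared. Each value below is a number of distinct sequences in that pooled list, and there are no replicates.

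Proteins of the Zbtb family join a BTB domain, through which they pair and recruit corepressors, to an array of zinc fingers that binds DNA, and most of those studied repress transcription. Piwi proteins bind piRNAs, small RNAs that guide the silencing of transposons in germ cells. Many piRNAs of the testis are cut from single-stranded precursors, among them ordinary mRNAs, and piRNAs bound to Mili typically start with U. The symbol Zbtb8os stands for the opposite strand of its neighbour: it encodes archease, a cofactor of tRNA ligation in human cells. No zinc finger was found in its translated coding sequence, whereas each of the other 39 genes had at least 1, and 183 were found in all. Zbtb8os was kept, since the symbol chose it. It had 46 sense sequences, 10.2 per kb of exon, and without it the family's median density was 24.4 per kb.

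The sequences shown here mark, for the members with most sequences, the 5′ end that occurred with most different 3′ ends, and show a fixed 5′ end beside a 3′ end that varies. They are not typical ends, since most 5′ ends of the family occurred with a single 3′ end. The capital letter is the first base, and T stands for the U of the RNA. The first lines are a nested set from Zbtb37, in which the 5′ end is fixed and the 3′ end moves. Its 8 listed lengths ran from 24 to 32 nt, and 3 of them are given.
Zbtb37, 24 nt, chr1:162943113-162943136, minus strand: Tagaactcactacatataccaagc
Zbtb37, 27 nt, chr1:162943110-162943136, minus strand: Tagaactcactacatataccaagctgg
Zbtb37, 30 nt, chr1:162943107-162943136, minus strand: Tagaactcactacatataccaagctggaac
Zbtb44, 8 different 3′ ends, chr9:30882269-30882298, plus strand: Taagaaagtcagattgaggtaataaaccag
Zbtb43, 8 different 3′ ends, chr2:33307266-33307295, minus strand: Tgagcttggtgaggatgaagtgcttttggc
Zbtb20, 6 different 3′ ends, chr16:43625025-43625053, plus strand: Tgaaagactgtgaagatagatagggacat
Zbtb10, 7 different 3′ ends, chr3:9284745-9284774, plus strand: Taaaaggatggttttacaatatgaagaagt
Zbtb21, 7 different 3′ ends, chr16:98172728-98172757, minus strand: Tgaagaaggcaaaggcaaatgaacacgggc
Zbtb5, 6 different 3′ ends, chr4:45007356-45007385, minus strand: Tgaaacgagttttgaacaagaggccgtggc

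Positions are those of the deposited list (mm9). The sequences of Zbtb37, Zbtb44, Zbtb43, Zbtb20 and Zbtb10 lie in 3′ untranslated regions, and those of Zbtb21 and Zbtb5 in coding sequence. All 7 of these 5′ ends start with U, as do the corresponding 5′ ends of Zbtb38, Zbtb34 and Zbtb26, with 5, 6 and 6 different 3′ ends. Ends with that many 3′ ends started with U more often than the rest of the family's ends, so that the letters shown describe the chosen ends alone.

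All 40 Zbtb genes had sense sequences, from 26 in Zbtb45 and Zbtb7b to 1686 in Zbtb37. Of all protein-coding genes, 71% had at least 1. Together the family matched 10662 distinct sense sequences, 0.48% of the list and 0.92% of the 1159330 sequences sense to protein-coding exons. Its genes are 0.182% of the protein-coding genes and hold 0.283% of their merged exon length. Per kb of merged exon the median Zbtb gene had 22.7 sense sequences (quartiles 14.9 and 55.5), against a median of 2.89 over all protein-coding genes (quartiles 0 and 12.8). The shortest Zbtb gene has 2004 bp of exon and the longest 30730 bp, and the 16280 protein-coding genes within that range had a median of 4.51 per kb. At least 50 per kb were reached by 12 of 40 Zbtb genes (30%), against 4.51% of all protein-coding genes. At least 100 per kb were reached by 3 of 40, against 1.02%. At least 100 sense sequences in number were found for 26 of 40 (65%), against 14.5%. These shares describe the pooled list and were not tested. The RNA level of each gene was not measured here, so that an abundant mRNA cannot be told apart from one that gives more small RNAs.

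**Figure D1:**
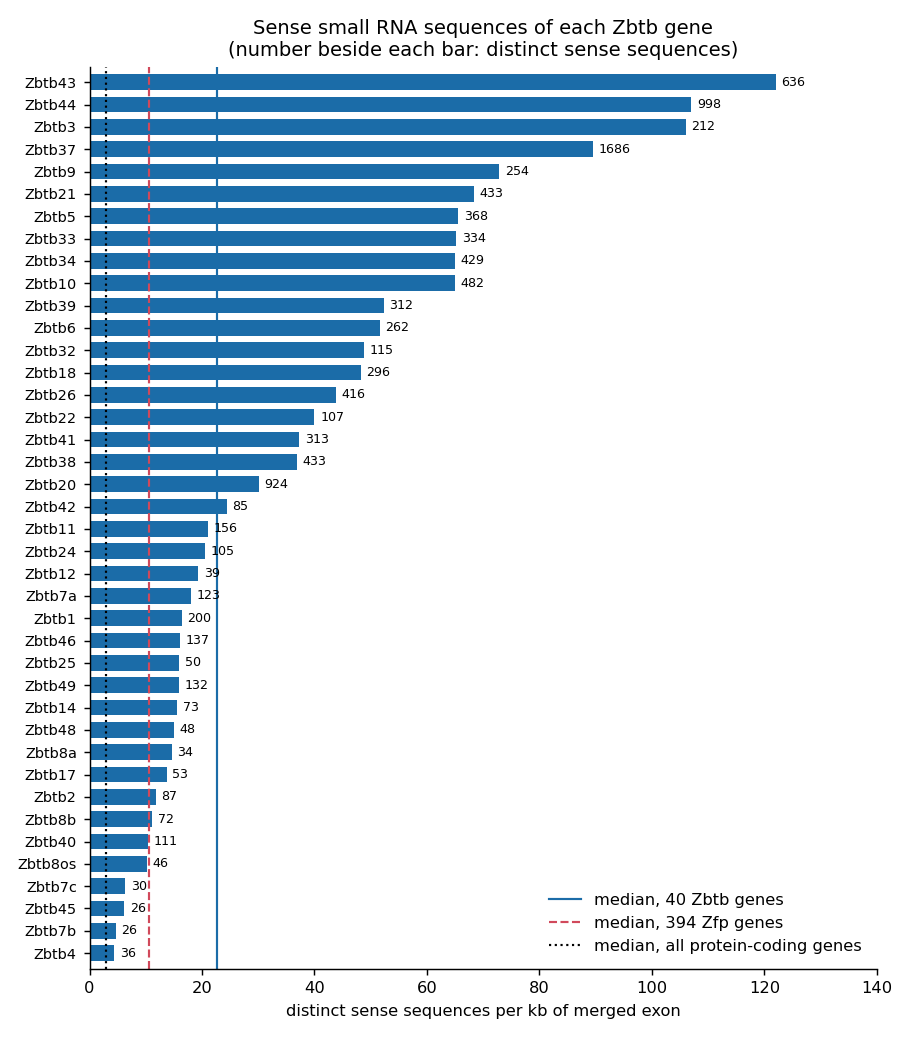
Sense density, as distinct sequences per kb of merged exon (x axis), for each of the 40 Zbtb genes, with the number of sequences beside each bar and the medians of the Zbtb genes (22.7), of 394 Zfp genes (10.6) and of all protein-coding genes (2.89) as vertical lines. Zbtb43, Zbtb44 and Zbtb3 exceed 100 per kb. The lowest gene, Zbtb4 with 4.44, lies above the median of all protein-coding genes but below that of genes in the Zbtb range of exon length (4.51, not drawn).

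Other families with 1 of the same domains stood lower. The 394 genes with a Zfp number, mostly zinc finger proteins without a BTB domain, had a median of 10.6 per kb, and 39 of them (9.9%) reached 50 per kb. The 36 Klhl genes, whose proteins join a BTB domain to kelch repeats, had a median of 4.01 per kb, with 5 (13.9%) at 50 or more. The 43 Btbd genes had a median of 0, and 13 of them held all 1353 sense sequences, with the highest at 58.5 per kb. They were taken by symbol alone, and near-identical gene copies were not set apart. Their median therefore describes this list of symbols and not BTB domain genes in general. Pooled over their exons the 43 genes had 9.55 per kb, against 38.8 for the Zbtb genes and 12.1 for all protein-coding genes. How sequences with several genome positions were placed is not stated, and the part of this step in the Btbd values was not tested. The 8 BTB zinc finger genes under other names had a median of 17.4 per kb and ranged widely. Among them the repressor gene Hic2 stood at 131 per kb with 833 sequences and Gzf1 at 80.7, while Bcl6, the repressor of germinal centre B cells, stood at 3.73, and 0 sequences matched Zfp131. The 9 genes for corepressors and partners of BTB domains had a median of 16.1 per kb. The ubiquitin ligase scaffold gene Cul3 was the highest of them at 42.3, the corepressor gene Ncor1 stood at 8.59, and the histone deacetylase gene Hdac1 at 0.871. These medians were set side by side and their differences were not tested.

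The germ cell origin of the list was checked by marker genes. The 8 germ cell markers ranged from 40.1 to 165 per kb (median 81.9). The 6 Sertoli cell markers ranged from 0 to 12.2 (Rhox5 at 0) and the 5 Leydig cell markers from 0 to 19.0 (Cyp17a1 and Hsd3b6 at 0), so that the somatic markers lay below every germ cell marker. Of the 40 Zbtb genes, 25 lay below the lowest germ cell marker and 23 above the highest somatic one.

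The family's sequences were unequally spread. The 5 genes with most sequences held 4726 of the 10679 matches (44.3%) and the first 10 held 63.7%. Zbtb37 alone, on chromosome 1 from 162933080 to 162964404, held 15.8%. Its 1686 sequences lie on 18814 bp of exon, 89.6 per kb, rank 291 among the protein-coding genes. Zbtb44 followed with 998 sequences (107 per kb, chromosome 9 from 30860858 to 30883418). Zbtb20, the gene of a repressor active in liver and hippocampus, had 924 on 30730 bp of exon, and with 30.1 per kb it came only 19th in density within the family. Zbtb43, which in mouse prospermatogonia acts on Z-DNA before DNA methylation is laid down, had 636 sequences and the highest density of the family, 122 per kb. Zbtb10, whose product binds variant telomere repeats in human cells, had 482 (65.0 per kb). Zbtb21 and Zbtb38 had 433 each (68.4 and 36.9 per kb), Zbtb34 had 429 (65.0), Zbtb26 had 416 (43.8) and Zbtb5, a repressor of the p21 gene in human cells, had 368 (65.6). Zbtb3 had 212 sequences on 2004 bp, 106 per kb, the third density of the family.

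Genes of 1 role often lay far apart in density. The 3 genes for binding of methylated CpG ranged from 4.44 to 65.2 per kb: Zbtb33, the gene of Kaiso, had 334 sequences (65.2 per kb), Zbtb38 had 433 (36.9 per kb), and Zbtb4 had 36 (4.44 per kb, the lowest density of the family). The 9 genes known from lymphocytes and other blood cells had a median of 16.4 per kb, and 0 of them reached 50. Only 4.51% of all protein-coding genes reached 50, so that a count of 0 does not set this group apart from genes in general. Zbtb32, a regulator of lymphocytes, was the highest at 48.8 per kb. Zbtb24, mutated in a human immunodeficiency with unstable centromeres, stood at 20.5, Zbtb7a at 18.1, Zbtb1 at 16.4, Zbtb46, a marker of dendritic cells, at 16.1, and Zbtb17, the gene of the MYC partner Miz-1, at 13.7. Zbtb7b, which directs T cells to the CD4 lineage, was the lowest of the group at 4.65. Among genes of telomeres and genome maintenance Zbtb10 stood at 65.0 per kb, Zbtb48 at 15.0 and Zbtb40 at 10.4. In the p21 and p53 group Zbtb5 stood at 65.6 per kb, Zbtb49 at 15.9 and Zbtb2 at 11.8. The neural repressor gene Zbtb18 stood at 48.2 and the muscle gene Zbtb42 at 24.4 per kb. The 20 genes in none of these groups had the highest median, 41.9 per kb, and 9 of them (45%) reached 50, against 4.51% of all protein-coding genes.

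**Figure D2:**
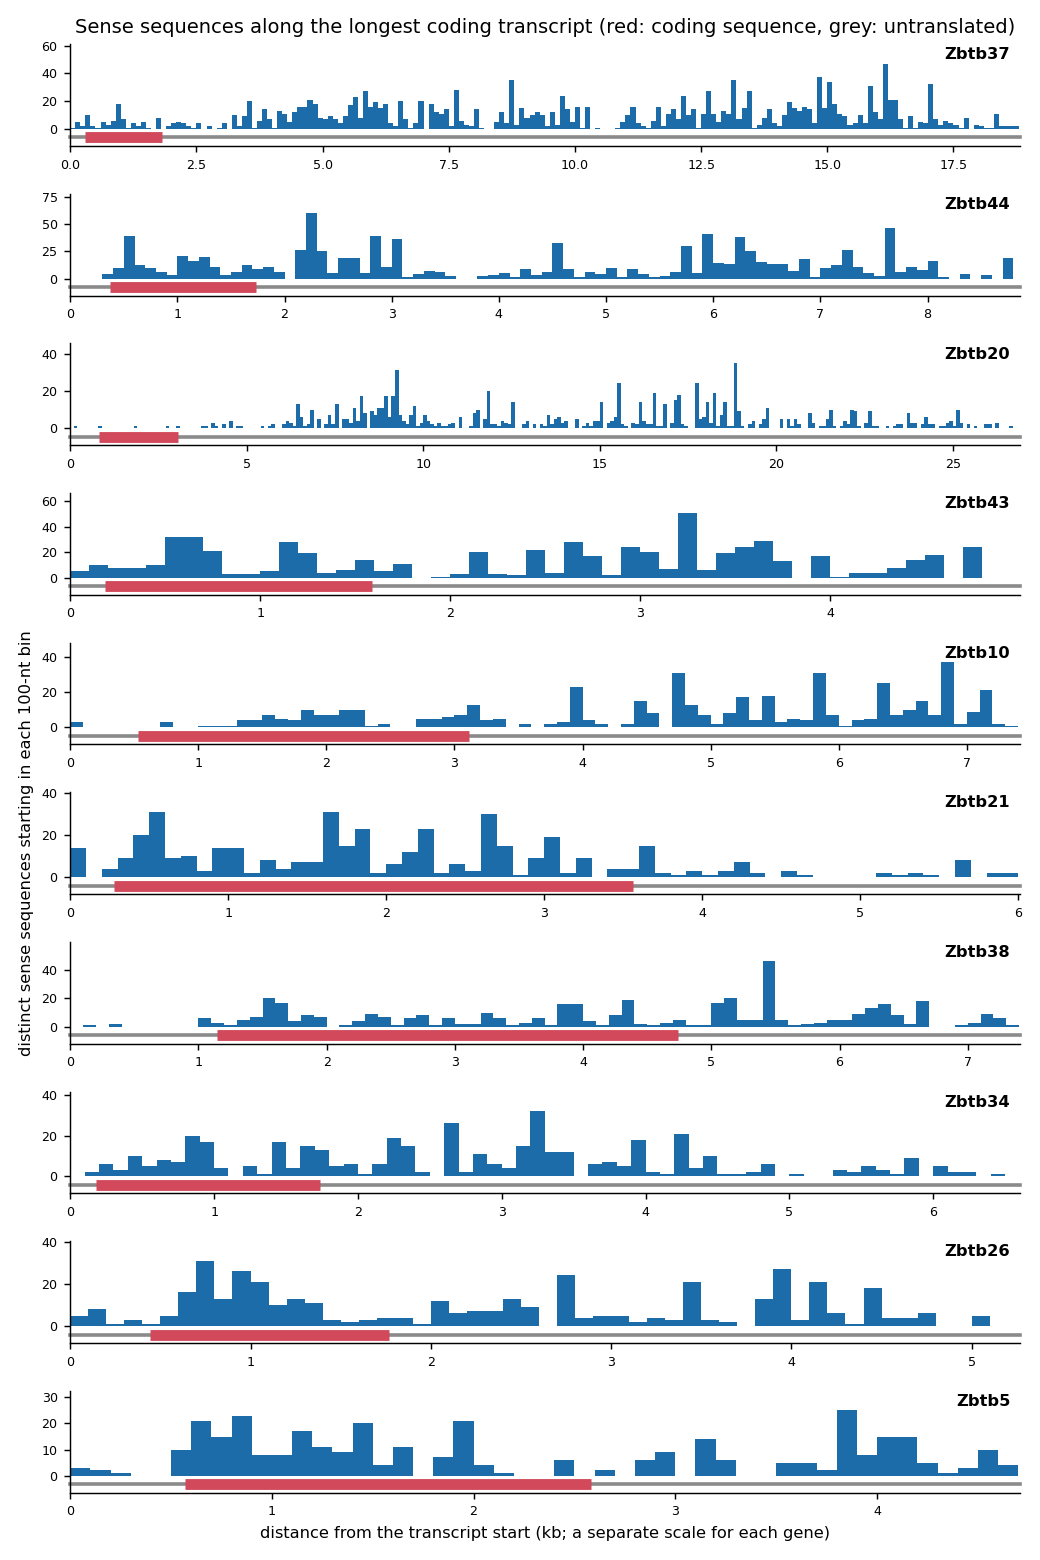
Distinct sense sequences starting in each 100-nt bin (y axis) along the longest coding transcript (x axis, distance from its start in kb) of the 10 Zbtb genes with most sequences, with the coding sequence in red and the untranslated regions in grey. Sequences run along the 3′ untranslated regions of Zbtb37, Zbtb44 and Zbtb20, and lie mainly in the coding sequence of Zbtb21.

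Within the mRNAs, 64.0% of the family's sense sequences lay in 3′ untranslated regions (95% interval 63.0 to 64.9%, counting error only, since neighbouring sequences of 1 transcript are not independent). The 3′ untranslated regions make up 48.2% of the length of the same coding transcripts. For this length each matched transcript was counted once and not weighted by its matches, so that genes with many isoforms weigh more in it. Coding sequence held 33.7% of the sequences and 43.3% of the length, and 5′ untranslated regions held 2.38% and 8.51%. Zbtb37 weighed heavily here: without it the 3′ share was 58.0%, and no share of length without it is given. With all genes kept and only the longest coding transcript of each, the 3′ share was 64.4%, next to 60.3% of the length. The distance between share and length thus depended on which isoforms were counted. On those longest transcripts the density was 49.1 per kb in 3′ untranslated regions, 46.6 per kb in coding sequence and 11.2 per kb in 5′ untranslated regions. Over all protein-coding genes it was 23.8, 18 and 10 per kb, and the 3′ share was 51.5%, next to 43.2% of the length. Zbtb37 alone held 1605 of the family's 6743 matches in 3′ untranslated regions and 73 of its 3565 in coding sequence. The family's densities were not computed without Zbtb37, so that the order of these 2 parts may rest on this 1 gene.

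Members differed in which part was covered. The 3′ untranslated region was denser than the coding sequence in 16 of 40 genes, and no such count over all protein-coding genes is given. In Zbtb37, 1605 of 1686 sequences lay in a 3′ untranslated region of 16999 nt, at 94.4 per kb against 48.2 in the coding sequence, and its 4 equal parts from 5′ to 3′ held 360, 414, 407 and 424. The sequences covered 57.9% of the transcript's bases. Zbtb20 was the most lopsided: 917 of 922 sequences lay in the 3′ untranslated region (38.4 per kb) and 4 in the coding sequence (1.80 per kb), and the 4 parts of that region held 196, 249, 338 and 134. Zbtb10 had 88.1 per kb in the 3′ untranslated region and 38.7 in the coding sequence, and Zbtb40 had 24.1 and 7.41.

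Zbtb21, Zbtb1 and Zbtb14 showed the opposite. In Zbtb21, 355 sequences lay in the coding sequence (108 per kb) and 56 in the 3′ untranslated region (22.9 per kb). Zbtb1, a gene needed for lymphocyte development, had 163 sequences in a coding sequence of 2142 nt (76.1 per kb) and 37 in a 3′ untranslated region of 9567 nt (3.87 per kb), where no sequence covered the 1289 nt from position 9410 to 10698 of the transcript. Zbtb14 had 60 in the coding sequence (44.4 per kb) and 8 in the 3′ untranslated region (3.15 per kb), with an uncovered stretch of 1110 nt from position 1773 on. Zbtb43 and Zbtb44 were dense in both parts, with 139 and 125 per kb in coding sequence and 118 and 115 per kb in the 3′ untranslated region. The high 3′ values of Zbtb48 (180 per kb) and Zbtb17 (50.5 per kb) rest on 9 and 5 sequences in regions of 50 and 99 nt. Which 3′ ends of these mRNAs are used in testis was not measured, so that an uncovered stretch cannot be told apart from one that is not transcribed.

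**Figure D3:**
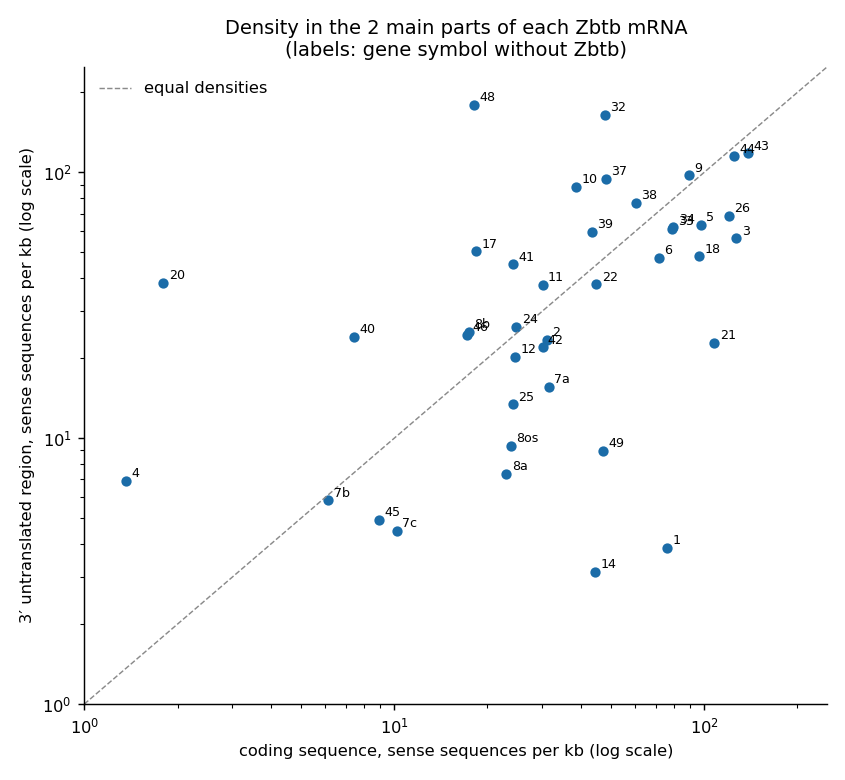
Sense sequences per kb in the coding sequence (x axis, log scale) and in the 3′ untranslated region (y axis, log scale) of the longest coding transcript of each Zbtb gene, with a dashed line at equal densities. Zbtb20 lies far above the line and Zbtb1, Zbtb14 and Zbtb21 lie far below it, while Zbtb43 and Zbtb44 are dense in both parts.

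Inside the coding sequences the stretches that encode zinc fingers held fewer sequences than their length. Of 3565 coding matches, 380 (10.7%, 9.66 to 11.7%) had their midpoint in a finger or in a linker between fingers, whereas these stretches were 15.5% of the coding length when each gene was weighted by its own matches. The share was below that of length in 27 of the 34 finger genes with at least 20 coding matches. In Zbtb26 it was 8.81% of matches and 23.4% of length, in Zbtb18 3.31% and 18.9%, and in Zbtb14 5% and 29.8%. Zbtb49 went the other way, with 37.4% of matches on 25% of length. Finger stretches resemble each other across many genes. The sources used here do not state how sequences with several genome positions were placed, and the part of this step in the difference was not tested.

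The first base of the family's sequences was U more often than in protein-coding genes as a whole. U started 75.7% of the 10595 sense sequences of 24 to 32 nt (74.9 to 76.5%), against 67.7% (67.6 to 67.7%) over the sequences sense to protein-coding exons. In coding sequence the share was 70.3% (68.8 to 71.8%) for the Zbtb genes and 59.4% for all genes, and in 3′ untranslated regions 78.6% (77.6 to 79.5%) and 75.2%. U made up 21.7% of the bases of the coding sequences of the Zbtb genes, weighted by matches, and 21.8% of those of all genes, weighted likewise. In the 3′ untranslated regions it made up 31.8% and 29.8%. The share of U was above the U content of the longest coding transcript in all 40 genes. It ranged from 45.8% in Zbtb48 (31.4 to 60.8%, 48 sequences) to 87.2% in Zbtb12 (72.6 to 95.7%, 39 sequences) and exceeded 50% in 38 genes, all but Zbtb48 and Zbtb17. These counts of 40 and 38 genes have no count over all protein-coding genes beside them. Among genes with over 300 sequences the lowest was Zbtb21 with 68.3% (63.7 to 72.7%) and the highest Zbtb41 with 84.7% (80.2 to 88.5%). These genes were picked as the ends of the range, sequences that share a 5′ end are not independent, and the difference was not tested. The number of distinct sequences, not of reads, is behind every share.

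Seen from the mRNA, a U was used as a 5′ end more often than any other base. Of 60794 U positions in the longest coding transcripts, 4703 (7.74%) were the 5′ end of at least 1 listed sequence, against 1.59% of A, 1.27% of C and 0.968% of G positions. In coding sequence 9.68% of U positions were used, in 3′ untranslated regions 7.33% and in 5′ untranslated regions 2.90%. The 10679 matches fell on 7019 different 5′ ends. Of the 4874 5′ ends with a single 3′ end 61.2% were U, of the 1997 with 2 to 4 different 3′ ends 85.2%, and of the 148 with 5 or more 93.2% (87.9 to 96.7%).

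**Figure D4:**
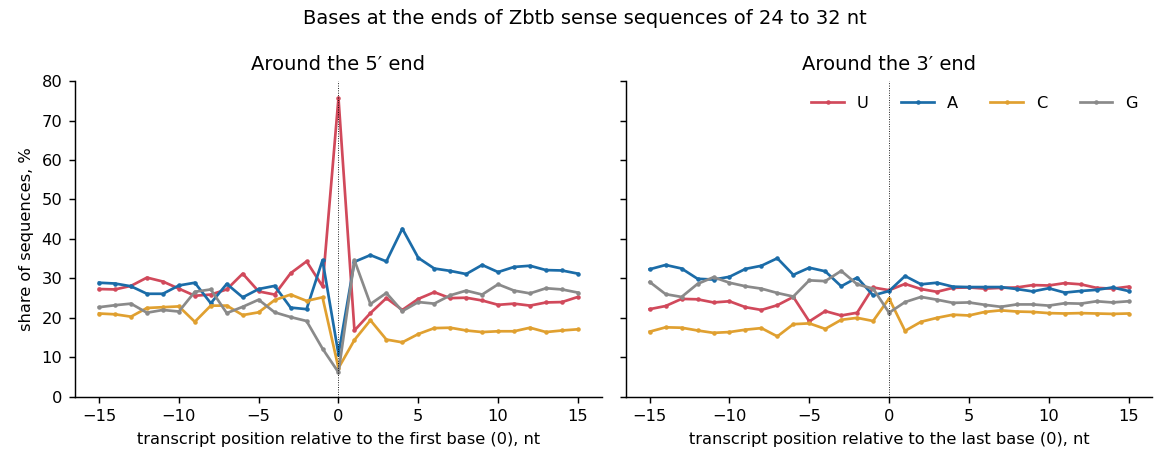
Share of each base (y axis, %) at transcript positions around the first base (left, position 0) and around the last base (right, position 0) of the 10595 Zbtb sense sequences of 24 to 32 nt. U reaches 75.7% at the first base, whereas the base after the 3′ end is U in 28.6%, close to its level further downstream.

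The base after the 3′ end did not stand out in its share of U. It was U for 28.6% of sequences (27.8 to 29.5%), beside a mean U content of 27.9% in the matched transcripts and 27.3% at the next position. Among sequences of 24 to 32 nt it was C for 16.7%, against 24.9% at the last base and 19% at the next position. It was A for 30.6%, against 26.8% and 28.5%. In phased piRNA production a cut makes the 3′ end of 1 piRNA and the 5′ end of the next, which puts a U directly after a 3′ end. On the longest coding transcripts 455 pairs of a 3′ end and a 5′ end lay directly next to each other, and the distances of 1 to 50 nt had between 395 and 490 pairs (mean 443 ± 20.1, SD over distances). Mature 3′ ends are trimmed, so that these ends need not be the original cuts. Inside the sequences A was the most common base at position 5 (42.6%), and at position 10 it made up 33.4% (32.5 to 34.3%), next to 31.1% at position 9 and 31.6% at position 11. Directly before the 5′ end G was rare, at 12.2%.

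Lengths were close to those of other mRNAs. The most common length was 27 nt (25.4% of the family's sequences and 25.8% of all sequences sense to protein-coding exons). Lengths of 29 to 32 nt made up 25.4% (24.6 to 26.2%) in the Zbtb genes and 23.3% over all. The share starting with U was 69.6% at 24 nt, 74.7% at 27 nt and 80.9% at 30 nt. Mean lengths of single genes ran from 26.7 nt in Zbtb3 to 28.0 nt in Zbtb2. The gel was cut at about 28 to 30 nt per the labels, and its part in these lengths was not tested.

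**Figure D5:**
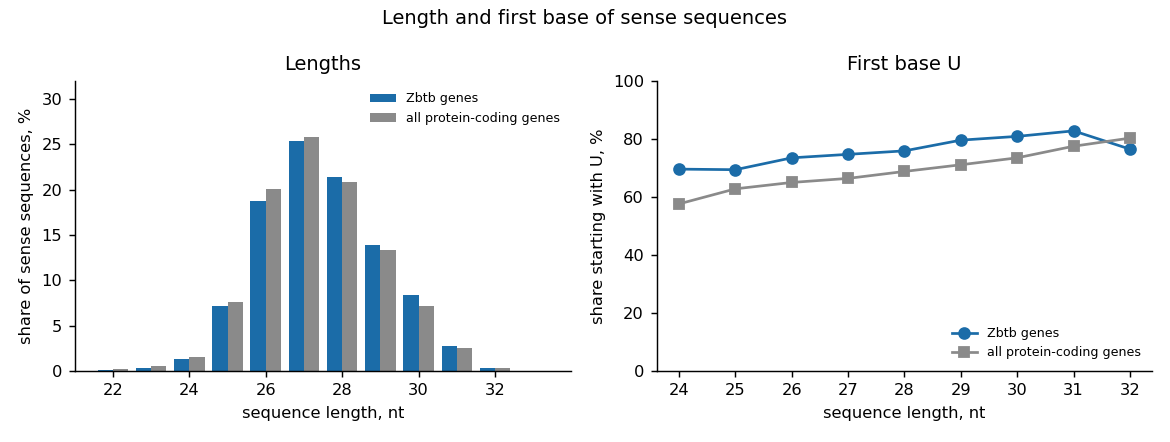
Left, share of sense sequences (y axis, %) of each length (x axis, nt) for the Zbtb genes and for all protein-coding genes, and right, share of sequences starting with U (y axis, %) at each length. The lengths peak at 27 nt in both sets of genes, and the share starting with U is higher in the Zbtb genes at each length from 24 to 31 nt.

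Antisense sequences were few. The family matched 55 antisense sequences that were sense to no Zbtb gene. Of the 40 genes, 24 had 0, but no share of all protein-coding genes with 0 is given to set beside that count. Summed over genes, the Zbtb genes had 10679 sense and 63 antisense matches, and all protein-coding genes had 1174915 and 46760. At least 5 were found in 5 of 40 genes (12.5%), against 8.61% of all protein-coding genes. Zbtb1 had most, 16 against 200 sense sequences, 14 of them in its coding sequence. Zbtb22 had 8, Zbtb12 had 6 and Zbtb7b had 5. Of the 9 antisense to Zbtb8os, 8 are sense sequences of Zbtb8a, whose transcript overlaps it on the opposite strand.

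Zbtb1 also held every pair whose 5′ ends overlapped by 10 nt on opposite strands, the offset left by the piRNA amplification (ping-pong) cycle. There were 2 such pairs of 5′ ends, on transcripts where overlaps of 1 to 30 nt had between 0 and 7 pairs, with most at 19 nt, so that 10 nt did not stand out. The pairs are shown because an overlap of this kind can be read from the letters. The capitals mark the overlapping bases, which are complementary between the lines of a pair.
Zbtb1 first pair, sense, chr12:77486909-77486936, plus strand: TGAAAAGTTActagacgaacatgtgctg
Zbtb1 first pair, antisense, chr12:77486892-77486918, minus strand: TAACTTTTCAcagctgaagccaaatcc
Zbtb1 next pair, sense, chr12:77486875-77486902, plus strand: TTACCTGTGAtagttgtggatttggctt
Zbtb1 next pair, antisense, chr12:77486857-77486884, minus strand: TCACAGGTAAagctccgtccaaagcgtc

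All 4 sequences start with U, and since the list pools the libraries, the partners need not come from the same one. The pairs lie within 80 nt of each other in the coding sequence.

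Some sequences cannot be given to a Zbtb gene alone. In all, 563 of 10662 (5.28%) also matched a transcript of another gene. All 254 sequences of Zbtb9 matched a transcript entered under the symbol Ggnbp1 (a gametogenetin-binding protein gene) that runs through the exons of Zbtb9 on the same strand, while the separate Ggnbp1 entry had 21 sense sequences on 5705 bp. In Zbtb37, 227 sequences are antisense to Serpinc1, the antithrombin gene, which had 12 sense sequences of its own. Zbtb6 and Zbtb26, neighbours on chromosome 2, share 17. Without all such sequences, 39 genes had at least 1 sequence, with Zbtb9 at 0. Zbtb2 lies on the plus strand in the list's build and on the minus strand in the annotation's build, and the other 39 genes had the same strand in both. Summed over the listed ranges of the 40 genes, 766 of 11922 sequences (6.43%) matched no annotated exon. The range of Zbtb26 lies inside that of Zbtb6, so its 416 sequences are counted for both genes in this sum.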

How the data were processed

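The authors deposited a single list for the series, and a script read it as it stands. Its unit is a listed sequence, with chromosome, start and end on NCBI mouse build 37, per the file headers (mm9, per the submitters' processing notes). The sources used here do not state the aligner, the mismatches allowed or the treatment of sequences with several positions. Each sequence was searched in the GENCODE vM21 transcripts of its chromosome (GRCm38, so genes were matched by letters and not by coordinates), first by its leading 18 nt and then over all its bases, on both strands. The search was tested on simulated data. Printed coordinates are the deposited ones. Strand came from the order of positions along the transcript.

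Density is the number of distinct sense sequences divided by the merged exon length in kb. Parts of mRNAs were assigned by the midpoint of the sequence, as a mean over matched coding transcripts, or on the longest coding transcript where stated. Zinc fingers were found by the spacing of cysteines and histidines in the translated coding sequence and joined over linkers of at most 8 residues. Shares carry exact Clopper-Pearson 95% intervals, for counting error only. With 1 library per group and a pooled list, no test and no comparison between libraries was made. Values in full were given for the 10 genes with most sense sequences, the 5 with most antisense, and Zbtb8os. Other genes were named as the ends of a range, by role or as examples chosen after their values were seen. Members and lists were chosen with earlier results of these data known. Python 3.11.15, numpy 2.4.6, scipy 1.17.1 and pandas 2.3.3 were used.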

Additional observations from a re-analysis of the deposited data

How the results depend on the processing

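Of 42 alternative values, 31 stayed within the interval of the share or within 1.5 times the count or median, 11 moved further and 0 changed direction, although shares and counts of a single list have little direction to change. No paired analysis was possible because each group has 1 library and the list carries no library column. With each 5′ end counted once, the family had 7019 sense sequences, 4 genes reached 50 per kb, 68.9% started with U, 62.8% lay in 3′ untranslated regions and 12% of coding matches lay in zinc finger stretches. This alternative holds fewer sequences by construction. With lengths of 24 to 28 nt, 7 genes reached 50 per kb, 74.1% started with U, 62.1% lay in 3′ untranslated regions and 27.7% were followed by U. For this and the preceding alternative no value over all protein-coding genes is given, so the background shares above do not apply to them. Without Zbtb37 the 3′ share was 58.0%. With the threshold at 100 per kb and all genes kept, 3 genes passed. Leaving out Zbtb8os or sequences shared with other genes moved no value past these bounds. Without the shared sequences 10 genes in place of 12 reached 50 per kb, and the median density was 19.3 in place of 22.7 per kb. The median density ranged from 17.7 to 32.9 per kb over its alternatives. Read numbers were not used, so the abundance of each small RNA is unknown.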
